A study of Mus musculus with 6 samples.

Results

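Chemokine receptors are cell-surface receptors that steer leukocytes along gradients of chemokines, and the 6 genes described here, Ccr4, Ccr8, Ccr6, Cxcr3, Cxcr4 and Cxcr5, encode receptors known to guide regulatory T cells (Tregs). Their chromatin was read by ATAC-seq, an assay that cuts and tags open DNA with Tn5 transposase. Members were chosen by name, as 6 of 21883 protein-coding genes. Every peak that overlapped a gene's RefSeq span (GRCm38.p6, the assembly behind mm10) or 10 kb on either side was taken, and peaks of the 6 libraries that overlapped each other were merged into regions, which gave 38 of the 64817 regions of the whole data set. The KO group was 3 libraries (replicates 1, 2 and 4) from il33-/- mice on a C57BL6 background, which lack the cytokine interleukin-33, and the WT group was 3 libraries (replicates 2, 4 and 6) from C57BL6 mice. All mice carried B16.F10 melanoma, a transplanted mouse tumour line, for 14 days after 300000 cells were placed under the skin, and Tregs were sorted from the tumour-draining nodes by CD4, CD25 and GITR. The age of the mice, the number of mice behind a library and whether replicates came from separate mice are not given in the sources used here, so each p-value reflects only how far these libraries spread, and that spread may be technical.

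CCR4 binds CCL17 and CCL22 and is known for Treg entry into skin and tumours, CCR8 binds CCL1 and marks tumour-infiltrating Tregs, and CCR6 binds CCL20 and is shared with Th17 cells. CXCR3, a target of the Th1 transcription factor T-bet, binds CXCL9 and CXCL10. CXCR4 binds CXCL12 and holds cells in bone marrow and lymphoid tissue, and CXCR5 binds CXCL13 and leads follicular T cells and B cells into B cell follicles. Open chromatin at such genes marks promoters and distal elements, and a peak does not by itself show that the gene is transcribed.

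The promoter sequences below, from RefSeq (GRCm38.p6), are shown because they cover the tallest promoter peak of the 6 genes (Cxcr4), a promoter peak lower in every KO library on the first scale used below (Ccr4), the weakest promoter peak (Cxcr3), and a pair of start sites of 1 gene of which only the downstream one was under a peak (Ccr6). Each runs 5′ to 3′, from 250 bases before to 50 bases after an annotated start site, at chr1:128592250-128592549 (minus strand) for Cxcr4, chr9:114496495-114496794 (minus) for Ccr4, chrX:101734098-101734397 (minus) for Cxcr3, chr17:8242276-8242575 (plus) for the downstream and chr17:8235793-8236092 (plus) for the upstream start of Ccr6. The Ccr4 start site (114496544) lies inside the RefSeq span of the gene, whose upstream end (114505476) had no window. Capitals mark matches to 10 motifs searched on both strands.
Cxcr4: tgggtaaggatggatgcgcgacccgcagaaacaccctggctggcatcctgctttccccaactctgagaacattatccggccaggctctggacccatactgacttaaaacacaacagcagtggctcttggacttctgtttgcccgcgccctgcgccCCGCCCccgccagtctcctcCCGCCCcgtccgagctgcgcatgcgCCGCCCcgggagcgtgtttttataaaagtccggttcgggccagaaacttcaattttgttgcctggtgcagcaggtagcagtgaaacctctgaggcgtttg
Ccr4: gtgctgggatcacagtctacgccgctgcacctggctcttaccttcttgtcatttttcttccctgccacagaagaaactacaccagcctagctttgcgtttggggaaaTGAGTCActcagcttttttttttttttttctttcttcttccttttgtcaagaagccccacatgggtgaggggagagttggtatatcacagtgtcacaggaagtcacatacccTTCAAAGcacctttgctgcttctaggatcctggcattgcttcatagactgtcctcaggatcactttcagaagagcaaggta
Cxcr3: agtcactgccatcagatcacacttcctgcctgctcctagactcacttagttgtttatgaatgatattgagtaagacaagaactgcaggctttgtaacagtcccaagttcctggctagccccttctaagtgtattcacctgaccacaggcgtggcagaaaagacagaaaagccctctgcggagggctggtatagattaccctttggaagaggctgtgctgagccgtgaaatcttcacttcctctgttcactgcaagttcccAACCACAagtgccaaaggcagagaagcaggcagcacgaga
Ccr6 downstream: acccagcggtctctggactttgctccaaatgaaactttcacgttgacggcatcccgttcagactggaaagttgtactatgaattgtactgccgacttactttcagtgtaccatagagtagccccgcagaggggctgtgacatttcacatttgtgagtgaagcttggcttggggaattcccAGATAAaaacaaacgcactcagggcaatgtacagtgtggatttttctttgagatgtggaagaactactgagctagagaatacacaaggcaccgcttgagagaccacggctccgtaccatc
Ccr6 upstream: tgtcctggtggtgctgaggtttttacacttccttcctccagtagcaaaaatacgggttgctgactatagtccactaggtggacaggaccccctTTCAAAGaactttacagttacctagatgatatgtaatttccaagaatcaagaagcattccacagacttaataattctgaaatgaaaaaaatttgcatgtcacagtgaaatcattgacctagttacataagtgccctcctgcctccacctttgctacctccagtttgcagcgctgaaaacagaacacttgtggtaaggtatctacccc

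Windows of this kind were found for 5 of the 6 genes (Ccr6 has 2 and Cxcr5 was not matched), and 3 of the 6 windows overlapped a peak in all 6 libraries, those of Cxcr4, Ccr4 and Ccr8. Of 21262 windows of protein-coding genes, 45.6% did, and 45.5% overlapped a peak in no library. The Cxcr3 window was under a peak in 5 libraries (not KO replicate 2), the downstream Ccr6 window in 5 (not KO replicate 1), and the upstream Ccr6 window in none of the 6. The Cxcr4 window held 20 CpG dinucleotides and 59.3% G and C, against a median of 13 and 56.3% over all windows. Over windows under a peak the medians were higher, at 22 and 62.0%. The other windows of the receptor genes held fewer CpG, namely 10 in the downstream Ccr6 window, 4 at Cxcr3, 3 at Ccr4 and 2 each at Ccr8 and the upstream Ccr6 start. The Cxcr4 window had 3 matches to the SP/KLF motif GGGCGG, which 46.2% of all windows hold, and 69.6% of those under a peak in all 6 libraries. Ccr4 had 1 match to the AP-1 motif TGANTCA (6.99% of all windows) at bases 108 to 114 of the window and 1 to the TCF/LEF motif CTTTGAA (4.54%), which the upstream Ccr6 window also had. The RUNX motif TGTGGTT (4.71%) matched once at Cxcr3, and the GATA motif AGATAA (9.65%) once each at Ccr8 and the downstream Ccr6 start. No match overlapped another, and the letters CCGGAAG (ETS, in 11.6% of all windows), TGTTTAC (forkhead, 3.01%) and AGGTGTGA (T-box, 1.15%) and the longer IRF (3.35%) and NF-kB (0.423%) motifs were in none of the 6 windows. Only 1 form of each motif was searched. The absence of a match, as for NF-kB, therefore holds for that form alone, and a window may carry other forms of the same site. These matches are descriptions of letters, not evidence of binding.

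The KO libraries held 4.72 to 10.3 M tags after filtering and 37266 to 42738 peaks, and the WT libraries 12.9 to 15.2 M tags and 52836 to 55939 peaks. Every KO library was thus shallower and its list shorter than every WT library, so no comparison below can tell depth and genotype apart. The targeted gene Il33 had 1 peak in each of the 6 libraries, which does not check the labels because the position of the deletion is not given. Of 8 Treg and T cell markers, 8 had a peak in all 6 libraries (53 to 57 peaks in all in KO and 66 to 75 in WT libraries). Markers of other cells also had peaks in all 6 libraries, at 3 of 5 genes each for B cells (8 to 12 peaks in KO, 15 to 19 in WT), CD8 T and NK cells (4 to 6 in KO, 8 in each WT library), myeloid cells (6 to 8 in KO, 10 in each WT library) and melanoma (7 to 10 in KO and 8 to 11 in WT). Ms4a1, Ncr1, Lyz2, Csf1r, Tyr and Dct had no peak in any library.

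All 6 receptor genes had at least 1 peak in every library, as did 66.1% of the 21883 protein-coding genes. The tallest and broadest accessible sites were the start of Cxcr4, the start of Ccr8 and a set of sites in and around Cxcr5, while Cxcr3 and Ccr6 had low, short peaks. Together the 6 genes held 25, 21 and 21 peaks in KO replicates 1, 2 and 4, against 30, 33 and 30 in WT replicates 2, 4 and 6. The groups did not overlap (mean 22.3 ± 2.31 for KO, 31 ± 1.73 for WT, SD over 3 libraries each, two-sided exact permutation p = 0.1, the smallest this design allows). Per 10000 peaks of a list the groups overlapped, at 5.9, 5.64 and 4.91 in KO and 5.63, 5.9 and 5.68 in WT libraries (exact permutation p = 0.5). Cut to the 37266 most significant peaks of each list, the 6 genes held 23, 21 and 18 peaks in KO and 19, 20 and 23 in WT libraries, with equal means of 20.7 (exact permutation p = 1). In the uncut lists, peaks at the 6 genes covered 11.6, 8.85 and 11.7 kb in KO and 16.8, 16.8 and 15.7 kb in WT libraries (exact permutation p = 0.1). Peaks were shorter over the whole KO lists too, with median lengths of 434, 409 and 449 bp against 474, 460 and 464 bp in WT. The covered length was not computed for all genes or in the cut lists.

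**Figure D1:**
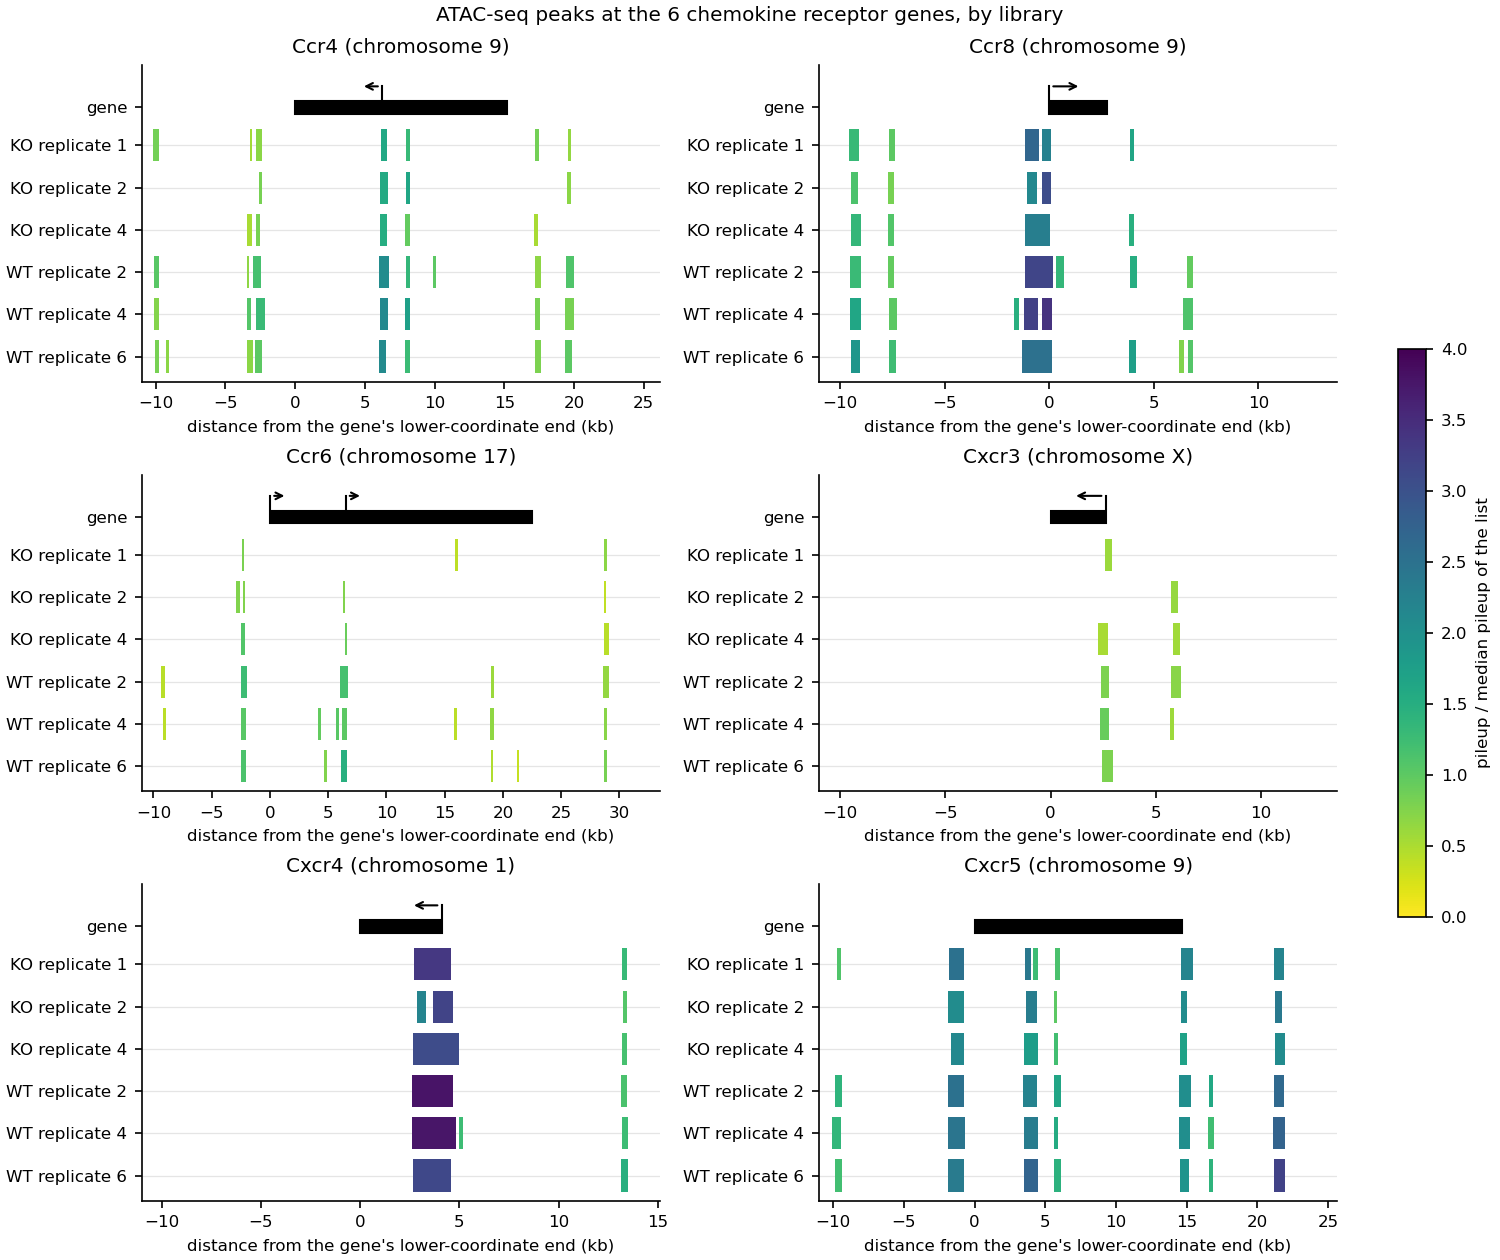
Peaks at each of the 6 genes by library, KO rows above WT rows, against distance from the lower-coordinate end of the gene in kb. Boxes are peaks coloured by pileup over the median pileup of the list, the black bar is the gene, and arrows mark annotated start sites and their direction where known. The wide dark boxes at the starts of Cxcr4 and Ccr8 were present in all 6 libraries, while Cxcr3 had 1 or 2 pale peaks per library.

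Gene by gene, Ccr4 had 7, 4 and 5 peaks in the KO and 8, 7 and 8 in the WT libraries, so the groups touched at 7. Ccr8 had 5, 4 and 4 in KO against 6 in each WT library, and Ccr6 3, 4 and 3 in KO against 5, 8 and 6 in WT. Cxcr3 had 1, 1 and 2 in KO and 2, 2 and 1 in WT, Cxcr4 2, 3 and 2 in both groups, and Cxcr5 7, 5 and 5 in KO against 7 in each WT library. Ccr8 and Ccr6 were the 2 genes whose KO libraries all had fewer peaks than any WT library (exact permutation p = 0.1 each, adjusted p = 0.629 over all genes with a peak). The same held for 15.5% of the 16242 protein-coding genes with a peak, and the opposite pattern, shown by none of the 6 receptor genes, for 0.388%. The adjusted p was 0.985 for Ccr4 and Cxcr5 and 1 for Cxcr3 and Cxcr4. Per 10000 peaks none of the 6 genes separated the genotypes, where 7.60% of genes were lower and 31.0% higher in every KO library.

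In the lists of equal length the mean differences at Ccr8 and Ccr6 turned round, and the groups overlapped. Ccr8 then had 5, 4 and 4 peaks in KO and 2, 4 and 5 in WT libraries, and Ccr6 2, 4 and 3 in KO and 2, 2 and 3 in WT. Cxcr3 kept 1 peak in each KO and 0 in each WT library, although not the same peak: its promoter region remained in 1 KO library and its upstream region in the other 2. More peaks in every KO library were seen at 1.84% of 15605 genes in these lists, and fewer at 1.70%. Ccr4, with 6, 4 and 3 in KO against 6 in each WT library, and Cxcr5, with 7, 5 and 5 in KO against 7, 6 and 7 in WT, stayed lower on average in KO, with overlapping or touching groups.

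**Figure D2:**
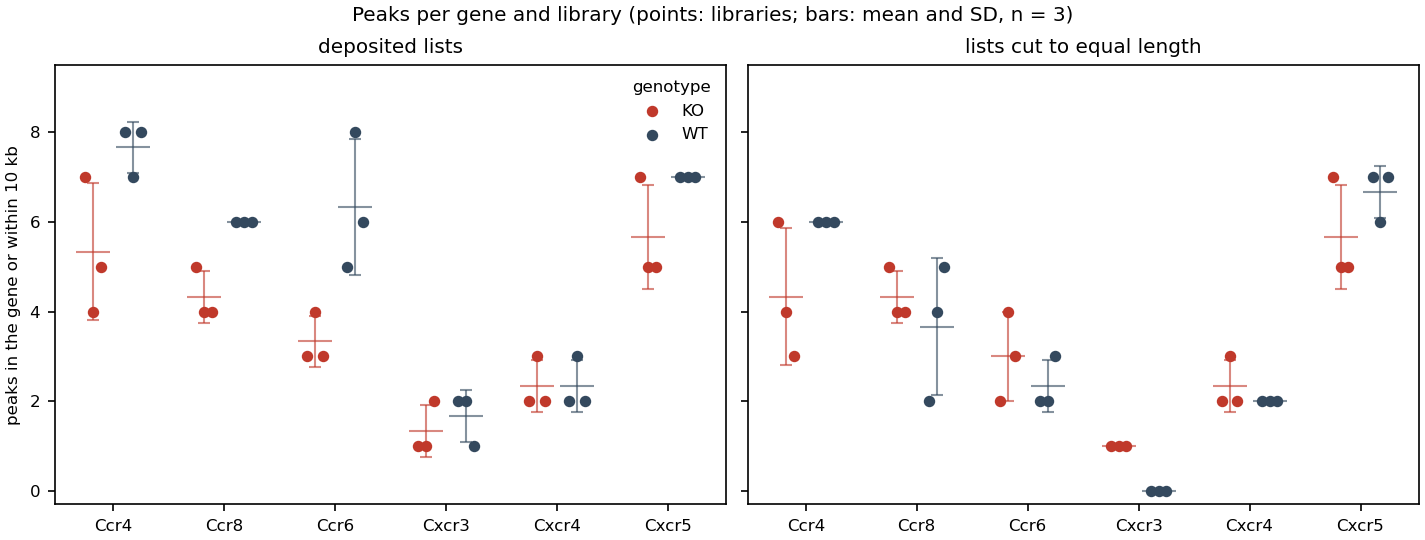
Number of peaks in each gene or within 10 kb, in the deposited lists (left) and in lists cut to equal length (right). Points are libraries, KO left of WT for each gene, and bars give the mean and SD (n = 3). Ccr8 and Ccr6 separate the genotypes on the left and overlap on the right.

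Of the 38 regions, 15 were called in all 6 libraries (39.5%, against 45.4% of all regions), 7 in all 3 WT and some KO libraries, and 3 in all 3 WT and no KO library. Another 9 were called in 1 or 2 WT and no KO libraries, 3 in some libraries of both genotypes, 1 in a single KO library, and 0 in all 3 KO and no WT library (0.0185% of all regions). Of the 25 regions that every WT list held, 60.0% were in every KO list too, against 67.6% over the genome. The number of these 25 that a KO library called was 21 in replicate 1 (8.21 M tags), 17 in replicate 2 (4.72 M) and 19 in replicate 4 (10.3 M). Regions called in a single library, 9 in all, were weak, at within-list percentiles of 1.14 to 30.3 by significance (100 being the strongest of its list), whereas regions called in all 6 had median percentiles of 29.9 to 82.6. The regions overlapped the gene in 17 cases and lay in its flank in 21, and their lengths were 200 to 2588 bp with a median of 478 bp. They are numbered below by position within each gene.

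The pileup of a peak is the authors' own value, the number of extended tags over its summit. It was divided by the median pileup of its list, which was 20, 16 and 23 in the KO and 28, 27 and 29 in the WT lists, and is called scaled pileup here. Values are those of the tallest peak of a library in a region, and single peaks were described and not tested. On this scale almost every shared site of the genome was lower in KO: over the 29419 regions called in all 6 libraries the median KO minus WT difference was -0.32 on the log2 scale, 94.7% of differences were negative, and in 48.2% of regions all KO values lay below all WT values (above them in 0.197%). The 15 regions of the receptor genes had a median difference of -0.19, with all 15 negative and 4 lower in every KO library. Dividing instead by the median over the 29419 shared regions brought the median of all regions to 0.03, and that of the 15 regions to 0.16, with 6 negative. On this second scale 0 of the 15 were lower in every KO library (6.93% of all shared regions) and 3 were higher (13.9%). With pileup divided by the tags kept in each library, 0 were lower in every KO library (3.34% of all shared regions) and 1, region 2 of Ccr8, was higher (4.70%).

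**Figure D3:**
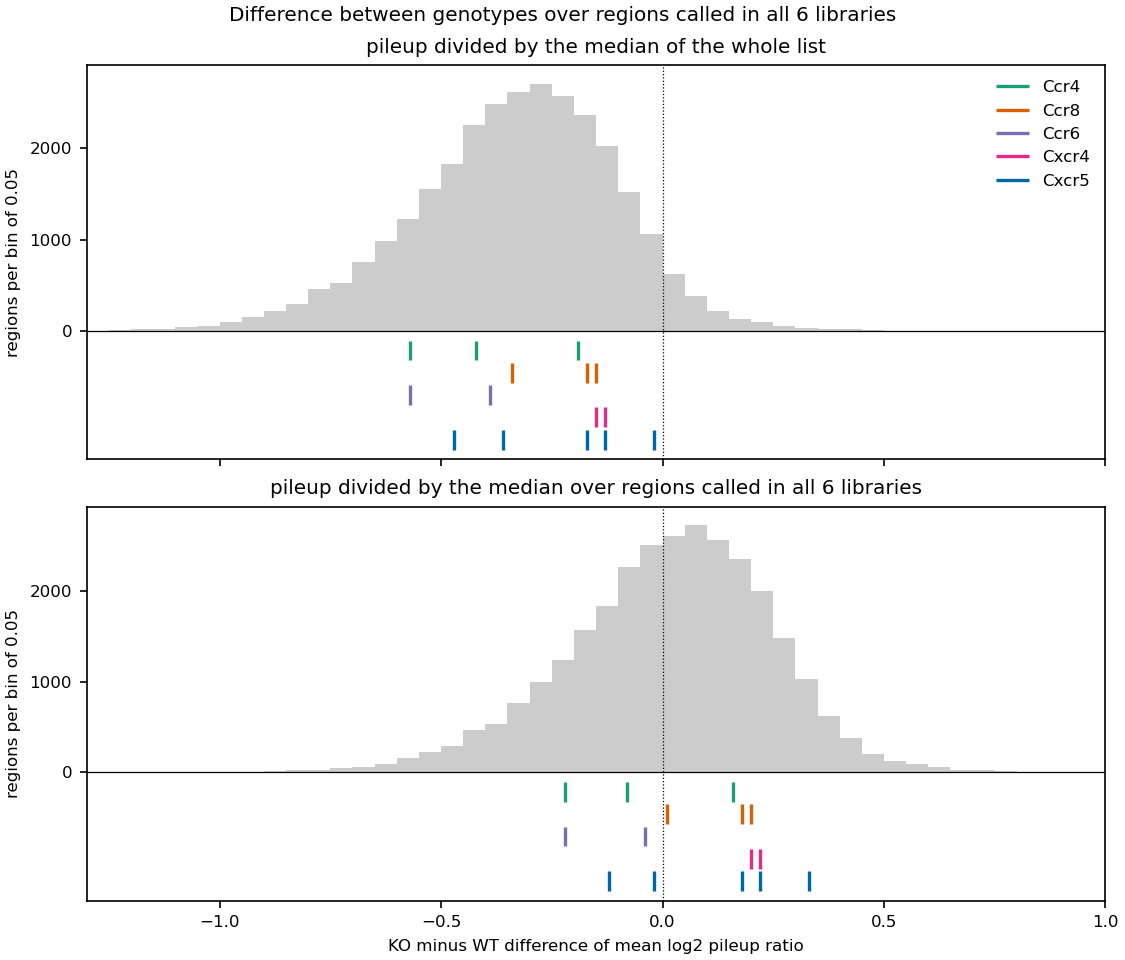
KO minus WT difference of mean log2 pileup ratio over the 29419 regions called in all 6 libraries (grey bars, regions per bin), with the 15 regions of the receptor genes as coloured ticks under the bars, 1 row per gene. In the upper panel pileup was divided by the median of the whole list and in the lower panel by the median over these shared regions. The ticks lie within the grey distribution in both panels.

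Ccr4 had 9 regions over 15.2 kb of gene and its flanks (chromosome 9, 114490316 to 114505476). Its tallest, region 5 (114496319 to 114497027), covered the start site shown above and had scaled pileups of 1.6, 1.56 and 1.52 in KO replicates 1, 2 and 4, against 2.07, 2.11 and 2.1 in WT replicates 2, 4 and 6. The libraries of a genotype lay close together and the genotypes apart (mean 1.56 ± 0.0391 for KO, 2.1 ± 0.0211 for WT, SD over 3 libraries each, log2 difference -0.42). Relative to the shared regions the same peaks were at 1.19, 1.25 and 1.17 in KO and 1.29, 1.21 and 1.3 in WT, so the groups overlapped and the difference was -0.08. Region 4, 2.2 kb beyond the lower-coordinate end of the gene (114487310 to 114488120), had 0.70, 0.812 and 0.826 in KO against 1.18, 1.3 and 1.0 in WT libraries (log2 difference -0.57, and -0.22 relative to shared regions, where the groups overlapped). It differed by more than most, since 15.1% of all shared regions had a lower difference. Region 6, inside the annotated span with its summit -1.85 kb from the same start site, negative being upstream (114498184 to 114498582), had 1.3, 1.62 and 0.957 in KO and 1.36, 1.74 and 1.28 in WT, which overlapped. The other 6 regions comprised 4 called in all WT and some KO libraries, including region 9 near the neighbouring gene Trim71 (114509652 to 114510284), and 2 called in a single WT library.

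Ccr8 is a short gene of 2.77 kb (chromosome 9, 120092133 to 120094906) with 7 regions. Region 4, which covered the start site and 1467 bp in all (120090843 to 120092309), had scaled pileups of 2.7, 3.06 and 2.3 in KO and 3.18, 3.41 and 2.52 in WT libraries. The groups overlapped (KO 2.69 ± 0.379, WT 3.03 ± 0.462, SD, n = 3 each). KO replicates 1 and 2 and WT replicate 4 had 2 peaks in it and the other libraries 1 broad peak, and summits spread over 784 bp. A pair of upstream regions, region 1 at -9.26 kb (120082560 to 120083155) and region 2 at -7.56 kb (120084424 to 120084841) from the start site, were also called everywhere. Region 1 had 1.3, 1.12 and 1.35 in KO and 1.29, 1.63 and 1.9 in WT, and region 2 had 1.0, 0.812 and 1.09 in KO and 0.964, 1.0 and 1.24 in WT, with overlap in both. Region 7, 3.46 kb past the gene (120098361 to 120099020), was called in no KO library and had 0.964, 1.11 and 1.07 in the WT libraries, at within-list percentiles of 24.7, 34.6 and 37.7. Region 6, 1.05 kb past the gene, was called in KO replicates 1 and 4 and WT replicates 2 and 6.

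Ccr6 spread over 22.5 kb (chromosome 17, 8236041 to 8258519) and had the most regions, 11, of which 5 were called in a single library. The 2 called in all 6 were low. Region 3, upstream of the first start site (8233567 to 8234055), had 0.80, 0.75 and 1.09 in KO and 1.25, 1.04 and 1.14 in WT. Region 11, 6.15 kb past the gene (8264669 to 8265159), had 0.70, 0.375 and 0.435 in KO and 0.643, 0.704 and 0.828 in WT. Both overlapped between genotypes. Region 7 lay over the downstream start site (8242089 to 8242727) and had no call in KO replicate 1, 0.75 and 0.913 in KO replicates 2 and 4, and 1.18, 1.0 and 1.48 in the WT libraries. Region 9 (8254920 to 8255301), inside the gene, was called in no KO library and had 0.607, 0.667 and 0.483 in the WT libraries, at percentiles 29.7, 35.2 and 20.2.

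Cxcr3 (chromosome X, 101731535 to 101734147) had the lowest tallest peak of the 6 genes, and neither of its 2 regions was called in all 6 libraries. Region 1, over the start site (101733803 to 101734474), had 0.60 in KO replicate 1, no call in replicate 2 and 0.522 in replicate 4, against 0.786, 0.926 and 0.793 in the WT libraries. Region 2, -3.33 kb from the start (101737203 to 101737741), had no call in KO replicate 1, 0.625 and 0.565 in KO replicates 2 and 4, and 0.714 and 0.593 in WT replicates 2 and 4, with no call in WT replicate 6. All of these peaks lay below the median height of their own list.

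Cxcr4 (chromosome 1, 128588199 to 128592299) had 2 regions, both called in all 6 libraries. Region 1 (128590791 to 128593378) covered the start site and, at 2588 bp, was the longest region of the 6 genes and the tallest: its scaled pileups were 3.35, 3.19 and 3.09 in KO and 3.79, 3.78 and 3.14 in WT libraries, above those of 88.8% of all shared regions on average. The groups overlapped on this scale (KO 3.21 ± 0.133, WT 3.57 ± 0.372, SD, n = 3 each). Relative to shared regions the values were 2.48, 2.55 and 2.37 in KO against 2.36, 2.17 and 1.94 in WT, so every KO library was above every WT library, with 2.37 and 2.36 nearly touching (log2 difference 0.2). Region 2, -9.23 kb from the start (128601352 to 128601702), had 1.3, 1.06 and 1.17 in KO and 1.14, 1.26 and 1.48 in WT.

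Cxcr5 (chromosome 9, 44511787 to 44526444) had 7 regions, none from a single library and 5 shared by all 6. Its tallest by the mean over libraries, region 7, lay 6.49 kb beyond the higher-coordinate end of the gene (44532934 to 44533786) and had 2.2, 2.38 and 2.09 in KO against 2.64, 2.74 and 3.21 in WT libraries, which did not overlap (log2 difference -0.36). Relative to shared regions it had 1.63, 1.9 and 1.6 in KO and 1.64, 1.57 and 1.98 in WT, with overlap (-0.02). Region 2 (44509903 to 44511086) overlapped the neighbouring gene Bcl9l, as did region 1, so it cannot be assigned to Cxcr5 alone. It had 2.5, 2.06 and 2.13 in KO and 2.5, 2.44 and 2.34 in WT. Region 3, inside Cxcr5 (44515234 to 44516310), had 2.4, 2.31 and 1.78 in KO and 2.21, 2.33 and 2.72 in WT.

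Of the further sites at Cxcr5, regions 4 and 5 were chosen for mention after their values were seen. Region 6 is given under the rule stated with the processing. Region 4, inside the gene (44517391 to 44517922), had 1.15, 1.0 and 1.22 in KO against 1.64, 1.56 and 1.45 in WT (log2 difference -0.47), and with regions 4 and 5 of Ccr4 and region 7 of Cxcr5 it made up the 4 that were lower in every KO library on the first scale. Region 5, over the higher-coordinate gene end (44526282 to 44527212), had 2.2, 2.06 and 1.7 in KO and 2.04, 2.04 and 1.93 in WT. Relative to shared regions it had 1.63, 1.65 and 1.3 in KO against 1.27, 1.17 and 1.19 in WT (log2 difference 0.33), and with region 1 of Cxcr4 and region 2 of Cxcr5 it made up the 3 that were higher in every KO library there. On the first scale 93.5% of all shared regions had a lower difference than region 5. Region 6, 1.89 kb beyond that gene end (44528336 to 44528706), was called in no KO library and had 1.61, 1.22 and 1.41 in the WT libraries at percentiles of 44.7, 10.8 and 37.0. Cxcr5, Ccr6 and Cxcr4 are also genes of B cells, whose marker peaks numbered 8 to 12 in KO and 15 to 19 in WT libraries. Lower KO totals were not particular to B cell markers. Treg and T cell markers had 53 to 57 in KO and 66 to 75 in WT libraries, and those of CD8 T and NK cells and of myeloid cells were also lower in KO. Melanoma markers overlapped between genotypes. The part of B cells in these values was not tested.

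**Figure D4:**
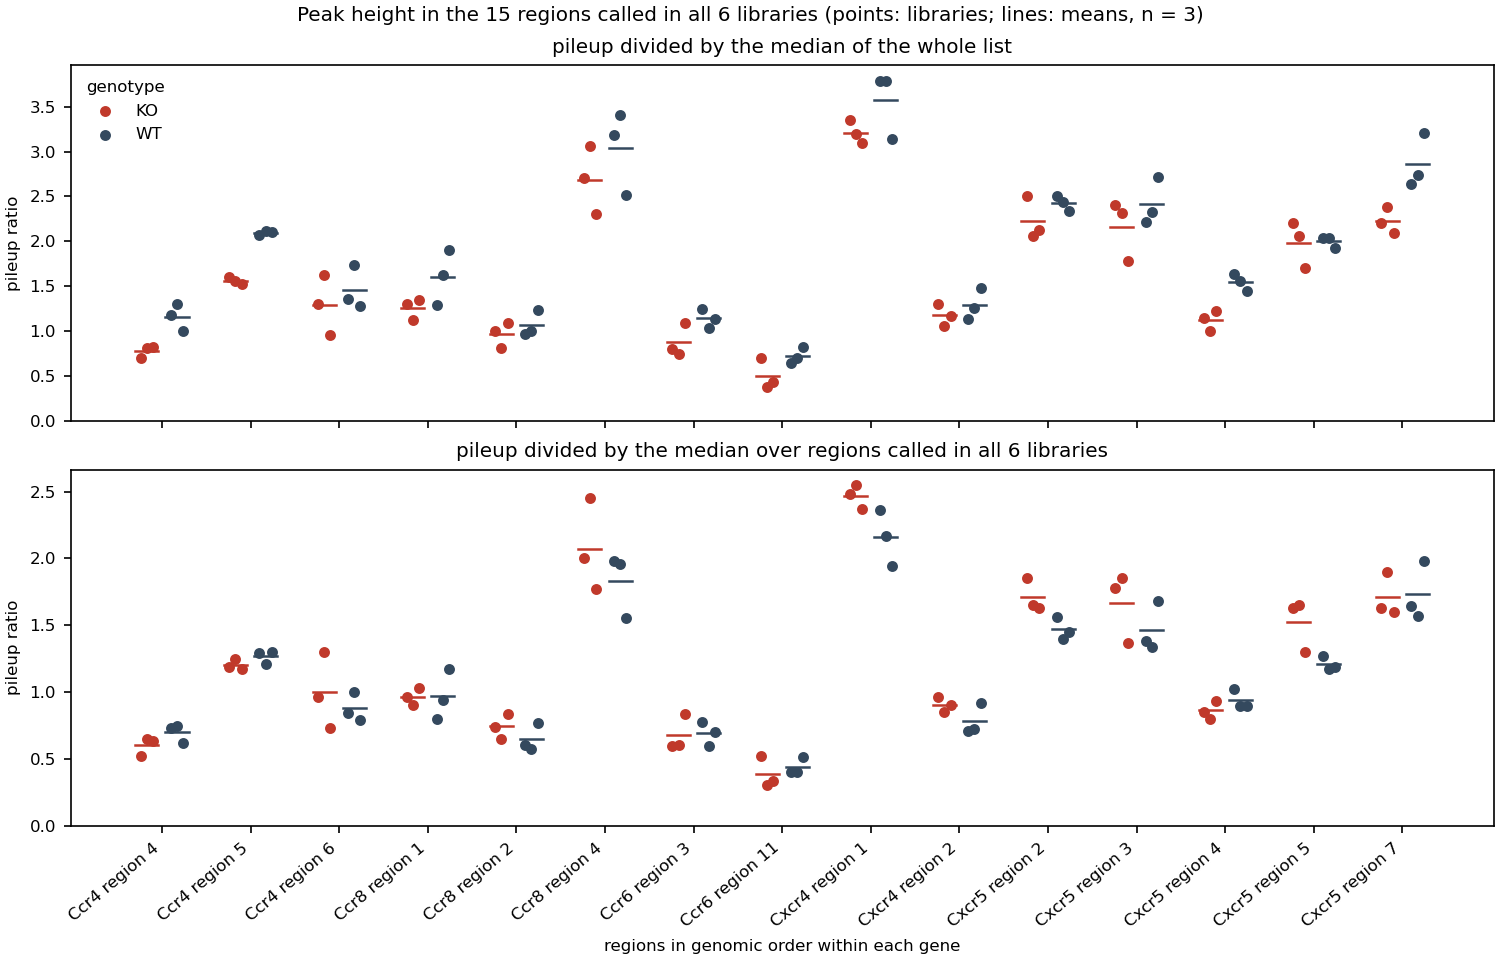
Pileup ratio of the 15 regions called in all 6 libraries, divided by the median of the whole list (top) or by the median over regions called in all 6 libraries (bottom). Points are libraries, KO left of WT for each region, and lines are means (n = 3). The start of Cxcr4 is the tallest site in both panels, and KO minus WT differences were negative for all 15 regions in the top panel and for 6 in the bottom panel.

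The 3 regions called in all WT and no KO libraries, region 7 of Ccr8, region 9 of Ccr6 and region 6 of Cxcr5, were 7.89% of the 38, against 4.66% of all 64817 regions. The regions of Ccr8 and Ccr6 lay outside the promoter windows of their genes, and that of Cxcr5 could not be set against one. At equal list length they were called in 2, 1 and 2 WT libraries and in 0 KO libraries. Absence from a list says that no peak was called with the tags at hand, not that the site was closed.

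Across the tallest peak of each gene, the order of mean scaled pileup was Cxcr4 (KO 3.21 ± 0.133, WT 3.57 ± 0.372), Ccr8 (KO 2.69 ± 0.379, WT 3.03 ± 0.462), Cxcr5 (KO 2.34 ± 0.188, WT 2.86 ± 0.301), Ccr4 (KO 1.58 ± 0.0539, WT 2.1 ± 0.0211), Ccr6 (KO 0.879 ± 0.182, WT 1.26 ± 0.223) and Cxcr3 (KO 0.597 ± 0.030, WT 0.835 ± 0.0789), with SD over 3 libraries each. The order was the same in both genotypes. Neighbours in it overlapped within a genotype between Ccr8 and Cxcr5 in both, and between Cxcr4 and Ccr8 in WT. The tallest peak was taken in each library and was not always the same region. At Cxcr5 it was region 2, which overlaps Bcl9l, in KO replicates 1 and 4 and region 7 elsewhere. At Ccr4 it was region 6 in KO replicate 2 and region 5 elsewhere. At Cxcr3 it was region 2 in KO replicates 2 and 4 and region 1 elsewhere. Taken so, the tallest peak was lower in every KO library at Ccr4, Cxcr3 and Cxcr5, as at 53.8% of the 14463 genes with a peak in all 6 libraries. It was higher in every KO library at none of the 6 (0.111% of those genes).

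Among 17 other chemokine receptor genes, 15 had a peak in some library and 13 in all 6. Ackr3 and Ackr4 had no peak. Ccr7, the lymph node homing receptor, was closest to Ccr4, Ccr6 and Cxcr5 in number of peaks over the 6 libraries, with mean absolute differences of 1.0, 1.0 and 1.17 peaks, and, tied with Cx3cr1, to Ccr8 (0.667). Cxcr4 was closest to Ccr1, Ccr2 and Cxcr1 (0.667), and Cxcr3 to these 3 and Ackr2 (0.50).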

How the data were processed

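ATAC-seq peak lists of 6 libraries, 3 KO and 3 WT, were analysed. Per the submitters' processing notes, Bowtie2 2.3.1 and Picard 1.88 were used with build mm10. Per the file headers, each library had its own peak calling by MACS 2.1.1.20160309 at a q-value of 0.05, with a tag shift of -100 bp, an extension to 200 bp, 1 tag kept per position and no control library. The deposited pileup is a signal in whole tags, not scaled to depth, and keeping 1 tag per position limits the height of tall peaks in deep libraries. The deposited −log10 p-value ranked peaks within a list, the deposited −log10 q-value set the stricter threshold, and the deposited fold enrichment, a ratio of height to local background, was read but not compared.

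Peaks overlapping by at least 1 bp were merged. KO and WT were compared with two-sided exact permutation tests over all 20 assignments, with Benjamini-Hochberg adjustment over all genes with a peak, and 0.1 is the smallest p. By rule, regions in full are those called in all 6 libraries (at most the 3 tallest per gene) and those called in all 3 libraries of 1 genotype and none of the other. Outside it, regions 1 and 2 of Cxcr3, 7 of Ccr6, and 4 and 5 of Cxcr5 were chosen after their values were seen. The members, lists and motifs were chosen with earlier results of these data known. Alternatives were equal-length lists, a −log10 q of at least 5, 5 kb or no flank, 200 bp windows around summits, 3 other pileup measures, peaks per 10000, leaving out each library, and pairs by replicate number. The count of other receptor genes that separated the genotypes is not reported here. Motif shares came from RefSeq promoter windows. The steps were tested on simulated data. SciPy 1.17.1, pandas 2.3.3, NumPy 2.4.6 and Matplotlib 3.10.9 ran under Python 3.11.15.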

Additional observations from a re-analysis of the deposited data

How the results depend on the processing

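The difference in the total of peaks at the 6 genes (-8.67 per library in KO) came to 0 in equal-length lists. Per 10000 peaks it was -0.256, with overlapping groups (exact permutation p = 0.5). The other alternatives did not equalise list length, and under them the KO total stayed lower, by -10.0 to -7.67 without each library in turn. The number of genes with fewer peaks in every KO library, 2 in the deposited lists, was 0 in equal-length lists and per 10000 peaks. It was 1 with a 5 kb flank and with the gene span alone, and 2 to 4 without single libraries (4 without KO replicate 1). Leaving out a library makes it easier for the groups not to overlap. The share over all genes was not computed without single libraries, with a 5 kb flank or with the gene span alone. In equal-length lists the mean difference turned to 0.667 at Ccr8, 0.667 at Ccr6 and 1.0 at Cxcr3. Per 10000 peaks it turned to 0.0166 at Cxcr3 and 0.0905 at Cxcr5, and with the gene span alone to 0.333 at Cxcr5.

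Regions called in all WT and no KO libraries numbered 3, but 0 in equal-length lists, 1 with the gene span alone and 3 to 5 without single libraries (5 without KO replicate 1). Shared regions lower in every KO library numbered 4 of 15, against 48.2% of all shared regions. They numbered 2 of 10 at the stricter threshold and 2 of 7 with the gene span alone, where fewer regions were shared. The number was 0 in equal-length lists, relative to shared regions and per tag kept. Without single libraries it was 5 to 7, with 15 to 18 regions shared (7 without KO replicate 1). Leaving out a library makes each of these counts easier to reach. The shares over all regions were not computed without single libraries, in equal-length lists or at the stricter threshold. Regions higher in every KO library numbered 0, but 3 relative to shared regions, 1 per tag kept (region 2 of Ccr8), 1 in equal-length lists (region 2 of Cxcr5), and 0 to 1 without single libraries (1 without KO replicate 4, region 5 of Cxcr5). Per tag kept, the log2 difference of region 7 of Cxcr5 turned to 0.01. The cause was not tested. With the replicate block, which paired the numbers 2 and 4 that both genotypes have, the total differed by -10.5. Under it 4 genes and 10 shared regions were lower in both pairs, and 6 regions were called in both WT and neither KO library. This rule is easier to meet than the one over all libraries, and the shares over all genes and regions were not computed for it. On the first scale 94.7% of all shared regions had a negative difference. The labels do not say that a number marks a shared origin. Deviations of same-numbered libraries from their group means correlated at -0.02 and -0.05 over 29419 regions. With only 2 such pairs, and pileup already scaled within each library, these values cannot tell whether a number marks a shared origin.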

Other observations

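Of 10 genes for ligands of the 6 receptors, 9 were matched as protein-coding genes, and 4 of these had a peak in all 6 libraries: Ccl1, with 1, 2 and 3 peaks in KO and 3 in each WT library, Ccl17, with 2, 3 and 3 in KO and 3, 3 and 2 in WT, Cxcl9, with 3, 2 and 2 in KO and 3 in each WT library, and Cxcl10, with 3 in every library. The flanks of Cxcl9 and Cxcl10 overlap, so a peak there counts for both genes. Ccl8, Ccl20, Ccl22, Cxcl12 and Cxcl13 had none within 10 kb. The KO and WT counts overlapped or touched at the 4 genes with a peak.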
